A study of Mus musculus with 8 samples.

Results

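The 8 genes described here encode subunits and small partner proteins of the pumps that exchange sodium or protons for potassium across the membrane of tubule cells: the sodium-potassium pump β subunit genes Atp1b1, Atp1b2 and Atp1b3, the FXYD genes Fxyd2, Fxyd4 and Fxyd5, and the proton-potassium pump catalytic subunit genes Atp4a and Atp12a. They were found by symbol among 19938 genes measured in mouse renal cortex, and all 8 were measured. Each gene is read from 1 probe set, the brightest on average of those annotated with its symbol and no other. The tissue was renal cortex from male C57Bl6J mice aged 10 weeks, and 4 arrays were labelled as SPAK KO, mice with a disrupted Stk39 gene, and 4 as WT littermates. Both groups had free access to feed with 0.32% NaCl and 1% KCl. SPAK is the kinase that phosphorylates the NaCl cotransporter in the distal convoluted tubule, and the stated aim was to find genes that cooperate against renal salt loss in its absence. The disrupted part of Stk39 is not given, and the source names of the knockout samples carry the letters WT before SPAK KO while their titles and genotypes name the knockout.

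The sodium-potassium pump sits in the basolateral membrane of tubule cells and keeps cell sodium low, and this gradient drives sodium entry through the apical cotransporters and channels. A catalytic α subunit moves the ions, a β subunit is needed for folding and delivery to the membrane, and an FXYD protein can attach and tune the affinity for sodium or potassium. Proton-potassium pumps are close relatives that secrete acid and take up potassium, and in the kidney they are known from the collecting duct.

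Among the 8 members, 1 rose in SPAK KO cortex, Atp4a, 0 fell and 7 did not pass (limma, Benjamini-Hochberg adjusted p under 0.05 over all genes). Over all 19938 genes 2.08% were called, 1.39% as higher and 0.682% as lower. The median difference, SPAK KO minus WT on the log2 scale, was 0.09 over the members and −0.01 over all genes tested. Leaving out genes with a mean under 6 moved the median of all genes up by 0.03. The difference was above 0 for 7 members and below 0 for Fxyd5, and over all 19938 genes it was above 0 for 9125. Arrays of the 2 groups did not overlap for 2 members, Atp4a and Atp1b3, both higher in SPAK KO, and 12.6% of all genes had groups that did not overlap, 6.9% as higher and 5.71% as lower in SPAK KO.

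The arrays differ in how far they can be counted as separate samples. Stk39 itself fell by 1.38 ± 0.11 on the log2 scale (SE, 8 arrays; limma adjusted p = 5.8e-04). Of 6297 genes with a mean above 8, at least 1 and at most 10 were over 0.4 apart within any pair of SPAK KO arrays and 3 within the pair WT 2 and WT 3, against 119 to 228 in the 5 other WT pairs. SPAK KO levels are therefore given array by array or as a mean with no SD, WT means ± SD use the average of WT 2 and WT 3 as a single sample (n = 3), and the SE, the 95% intervals and adjusted p-values of the fit over 8 arrays would be too small if arrays share RNA. Over the same 6297 genes, pairs of a SPAK KO and a WT array had 131 to 393 more than 0.4 apart, a range that overlaps that of the WT pairs. WT 4 had 131 to 167 against the SPAK KO arrays and 119 to 217 against the other WT arrays. The values are log2 RMA values, so a level of 1 gene is not set against that of another.

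The β subunit genes did not pass, and the interval was narrowest for the one that serves most of the kidney's pumps. Atp1b1, the β subunit gene of nearly all tubule segments, had log2 values of 13.04, 13.02, 13.04 and 13.07 on SPAK KO arrays 1 to 4, against 12.98, 13.01, 13.01 and 13.05 on WT arrays 1 to 4. The groups overlapped, and all 8 values lay close together. Its difference was 0.03 ± 0.04 (SE; limma adjusted p = 0.737), and the 95% interval of the ratio of SPAK KO to WT ran from 0.955 to 1.09. With each array centred on its median, which moved the median of all genes up by 0.06, the Atp1b1 difference was 0.09 ± 0.05 (limma adjusted p = 0.312). The annotated span of Atp1b1 overlaps that of Nme7, whose difference was 0.07 ± 0.05.

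Atp1b3, a widely expressed β subunit gene, read 10.65, 10.65, 10.62 and 10.63 on the SPAK KO arrays, against 10.41, 10.61, 10.54 and 10.56 on the WT arrays. Every SPAK KO array was above every WT array, by a gap of 0.01 between the lowest SPAK KO and the highest WT array. WT 1 was the lowest WT array. The difference was 0.11 ± 0.05 (limma adjusted p = 0.297), with a ratio interval of 0.994 to 1.17. A second probe set of Atp1b3 gave 9.90, 9.94, 9.97 and 10.09 on the SPAK KO arrays, against 9.81, 9.84, 9.88 and 9.95 on the WT arrays. Its groups overlapped and its difference was nearly the same, 0.10 ± 0.06. The sources used here do not say whether one of the probe sets also binds transcripts of a copy of the gene.

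Atp1b2, the β subunit gene first known from glial cells as an adhesion molecule, varied more between arrays. It read 7.09, 6.79, 6.98 and 6.98 on the SPAK KO arrays, against 6.82, 6.74, 6.58 and 7.04 on the WT arrays. The highest WT array, WT 4, exceeded 3 of the 4 SPAK KO arrays. The difference of 0.17 ± 0.10 did not pass (limma adjusted p = 0.372), and the ratio interval of 0.968 to 1.3 was the widest of the β subunits. Of 6 nerve and glial markers measured, 0 were called and their median difference was −0.11. A mean under 6 was found for 5 of these 6, so the list says little about glial content.

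**Figure D1:**
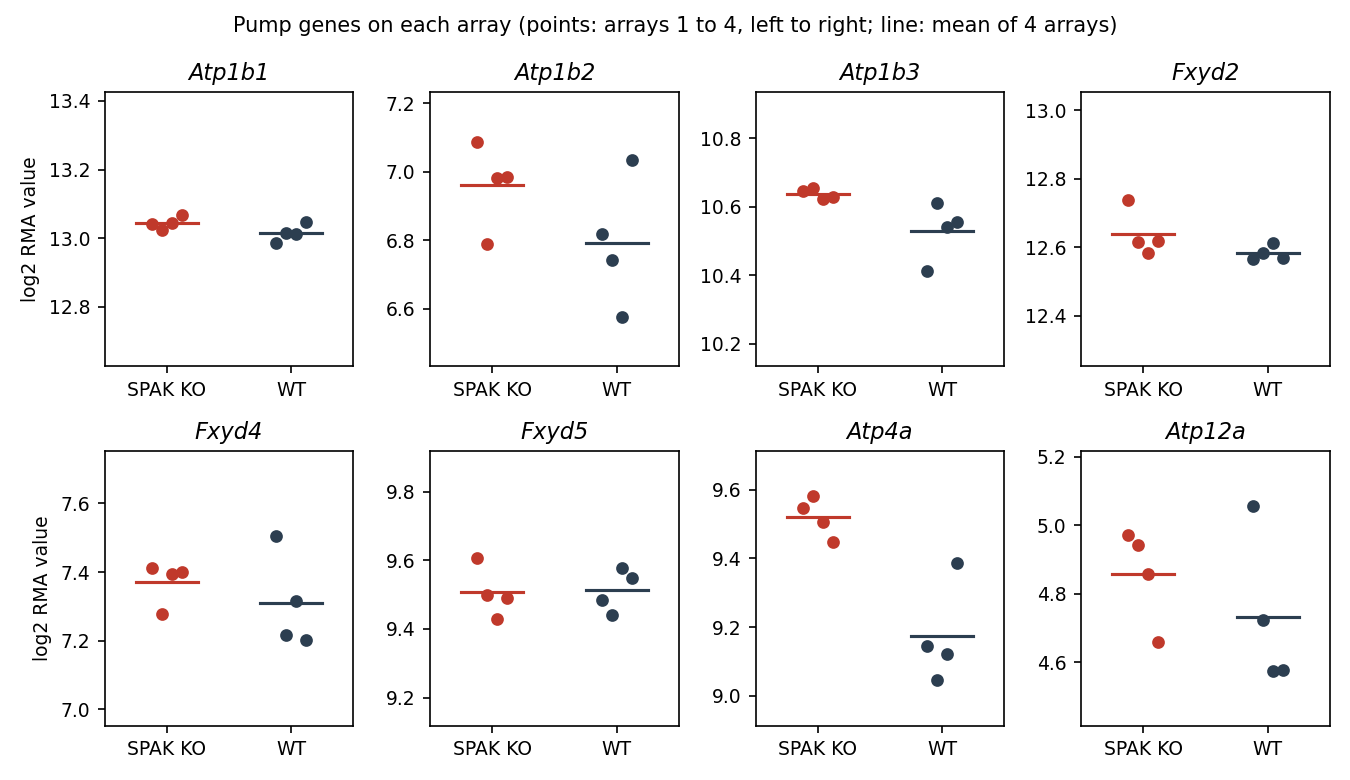
Log2 RMA values of the 8 pump genes on each array, with SPAK KO arrays left of WT arrays, points for arrays 1 to 4 from left to right and a line at the mean of the 4 arrays; every panel spans the same log2 height around its own centre. The points of the 2 groups are apart for Atp4a and, by 0.01, for Atp1b3, and overlap for the other 6 genes.

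The FXYD genes among the members did not pass either. Fxyd2 encodes the γ subunit, which lowers the pump's apparent affinity for sodium and whose human gene is mutated in a form of renal magnesium wasting. It read 12.74, 12.61, 12.58 and 12.62 on the SPAK KO arrays, against 12.57, 12.58, 12.61 and 12.57 on the WT arrays. The groups overlapped, and SPAK KO 1 was the highest of the 8. The difference was 0.06 ± 0.05 (limma adjusted p = 0.570), with a ratio interval of 0.963 to 1.12. The distal convoluted tubule is 1 of the segments that hold Fxyd2, and of 11 early distal convoluted tubule markers 2 fell, Pvalb at −1.30 ± 0.09 and Trpm6 at −0.63 ± 0.10, and 0 rose. The mean over those 11 markers was 9.10 to 9.16 on the SPAK KO arrays and 9.26 to 9.42 on the WT arrays, with a list median difference of −0.08. Without Pvalb and Trpm6, the mean over the other 9 was 9.55 to 9.59 on the SPAK KO arrays and 9.52 to 9.73 on the WT arrays. Of the 11 differences, 9 were below 0, and those of Egf at 0.19 ± 0.07 and Slc8a1 at 0.13 ± 0.12 were above 0. Slc8a1 is also in the list of late distal and connecting tubule markers, so the early list does not mark the early segment alone. The part of these markers in the Fxyd2 value was not tested. In bulk cortex, fewer cells of a type and less RNA per cell cannot be told apart.

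Fxyd4 encodes CHIF, the corticosteroid hormone-induced factor of the collecting duct, which raises the pump's apparent affinity for sodium. It read 7.41, 7.28, 7.39 and 7.40 on the SPAK KO arrays, against 7.50, 7.22, 7.32 and 7.20 on the WT arrays. The highest array was WT 1 and the lowest WT 4, so the SPAK KO arrays lay inside the WT range. The difference was 0.06 ± 0.07 (limma adjusted p = 0.672), with a ratio interval of 0.934 to 1.17. Of 8 principal cell markers, a list that holds Fxyd4 itself, 2 fell and 0 rose, the water channel genes Aqp2 at −0.29 ± 0.06 and Aqp4 at −0.35 ± 0.07. Leaving out arrays in turn, each passed in 1 of 8 fits, and with WT 2 and WT 3 averaged neither passed (limma adjusted p = 0.0999 for Aqp2 and 0.0709 for Aqp4, whose mean was under 6). The differences of 5 of the 8 were above 0, among them the water channel gene Aqp3 at 0.23 ± 0.06 and Gata3, a transcription factor gene, at 0.21 ± 0.07, and the list median was 0.06. The mean over these 8 was 8.09 to 8.14 on the SPAK KO arrays and 8.06 to 8.12 on the WT arrays. Sgk1, an aldosterone-induced kinase gene, was higher by 0.50 ± 0.09 (limma adjusted p = 0.0209) on the same arrays.

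Fxyd5 encodes dysadherin, an FXYD protein with a long extracellular part that is known to weaken cell adhesion. It read 9.61, 9.50, 9.43 and 9.49 on the SPAK KO arrays, against 9.48, 9.44, 9.58 and 9.55 on the WT arrays. Both the highest and the lowest of the 8 values came from SPAK KO arrays. The difference was −0.01 ± 0.06 (limma adjusted p = 0.966), its ratio interval was 0.915 to 1.09, and its sign turned when each array was centred on its median (0.05). Fxyd7 and Fxyd1, the next genes along chromosome 7, gave −0.0008 ± 0.06 and −0.02 ± 0.05, and both also turned positive with centred arrays (0.06 and 0.04).

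Atp4a, the catalytic subunit gene of the gastric-type proton-potassium pump, was the member that rose. Its log2 values were 9.55, 9.58, 9.51 and 9.45 on SPAK KO arrays 1 to 4, against 9.14, 9.04, 9.12 and 9.39 on WT arrays 1 to 4. Every SPAK KO array lay above every WT array, with 0.06 between the lowest SPAK KO array and WT 4, the highest WT array. The SPAK KO mean was 9.52 and the WT mean 9.20 ± 0.16 (SD, n = 3). The difference was 0.35 ± 0.07, a ratio of 1.27 with an interval of 1.14 to 1.42 (limma adjusted p = 0.0439).

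The Atp4a call was not steady across fits. When arrays were left out in turn the difference ran from 0.304 to 0.418, and it passed in 1 of these 8 fits, the one without WT 4 (limma adjusted p = 0.0058). Leaving out any of the 7 other arrays gave an adjusted p of 0.0807 to 0.131. Fits without a SPAK KO array gave differences of 0.327 to 0.371. Those arrays are nearly alike, so such a fit can move the size little and does not show that it is steady. With WT 2 and WT 3 averaged the adjusted p was 0.0984. With each set of agreeing arrays averaged to a single sample, the Atp4a difference measured 0.32 ± 0.14. That is a size with no test of genotype, since 1 SPAK KO sample is left. The nearest genes on either side in the RefSeq annotation of GRCm38.p6, 2200002J24Rik and Tmem147, gave −0.25 ± 0.07 and −0.0027 ± 0.06, and neither was called, with Tmem147 at 0.06 with centred arrays.

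Atp12a encodes the catalytic subunit of the non-gastric proton-potassium pump, known in rodents to increase in the collecting duct when potassium is depleted. It had a mean under 6 and read 4.97, 4.94, 4.86 and 4.66 on the SPAK KO arrays, against 5.06, 4.72, 4.58 and 4.58 on the WT arrays. WT 1 was the highest of the 8 and the groups overlapped across nearly their whole range. The difference was 0.13 ± 0.11 (limma adjusted p = 0.568), and its ratio interval of 0.92 to 1.29 included the 1.27 measured for Atp4a. RMA values carry no detection call, so whether Atp12a was above background is unknown.

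**Figure D2:**
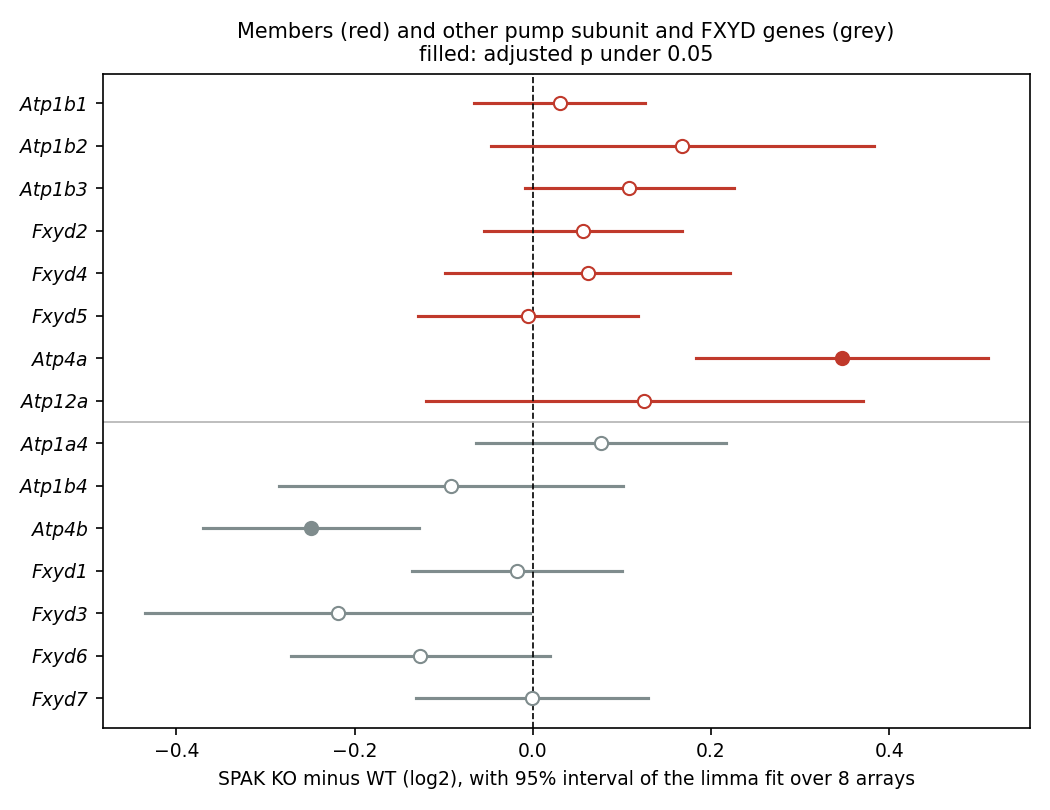
SPAK KO minus WT differences in log2 values with 95% intervals of the limma fit over 8 arrays, for the 8 members (red) above 7 other pump subunit and FXYD genes (grey), filled where the adjusted p was under 0.05. Atp4a at 0.35 and Atp4b at −0.25 are filled and lie on opposite sides of 0, and the intervals of the 7 other members include 0.

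The partner subunit of Atp4a went the other way. Atp4b, the β subunit gene with which the gastric catalytic subunit assembles, read 5.41, 5.25, 5.28 and 5.35 on the SPAK KO arrays, against 5.56, 5.64, 5.50 and 5.58 on the WT arrays. All 4 SPAK KO arrays were below all 4 WT arrays, by a gap of 0.09. It fell by 0.25 ± 0.05 on the log2 scale, a ratio of 0.842 (interval 0.774 to 0.915; limma adjusted p = 0.0491). The Atp4b call was lost whichever of the 8 arrays was left out (adjusted p = 0.0655 to 0.128). The fall was smaller with quantile normalization again (−0.18, adjusted p = 0.167) or cyclic loess (−0.18, adjusted p = 0.169). Its mean was under 6, so the call rests on a dim probe set.

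Of the 7 other subunit and FXYD genes measured, Atp4b was the 1 that fell, 0 rose and 6 did not pass, with a median difference of −0.09. A mean under 6 was found for 4 of these 7, so the median rests in part on dim probe sets. Fxyd3, which encodes a FXYD protein first found in mammary tumours, read 5.83, 5.64, 5.75 and 5.69 on the SPAK KO arrays, against 6.22, 6.03, 5.77 and 5.78 on the WT arrays, and its difference was −0.22 ± 0.10 (limma adjusted p = 0.258). Fxyd6, the neighbour of Fxyd2 on chromosome 9, gave −0.13 ± 0.07, opposite in sign to Fxyd2, and did not pass. Atp1a4, the catalytic subunit gene of sperm, and Atp1b4, a muscle gene, gave 0.08 ± 0.06 and −0.09 ± 0.09.

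**Figure D3:**
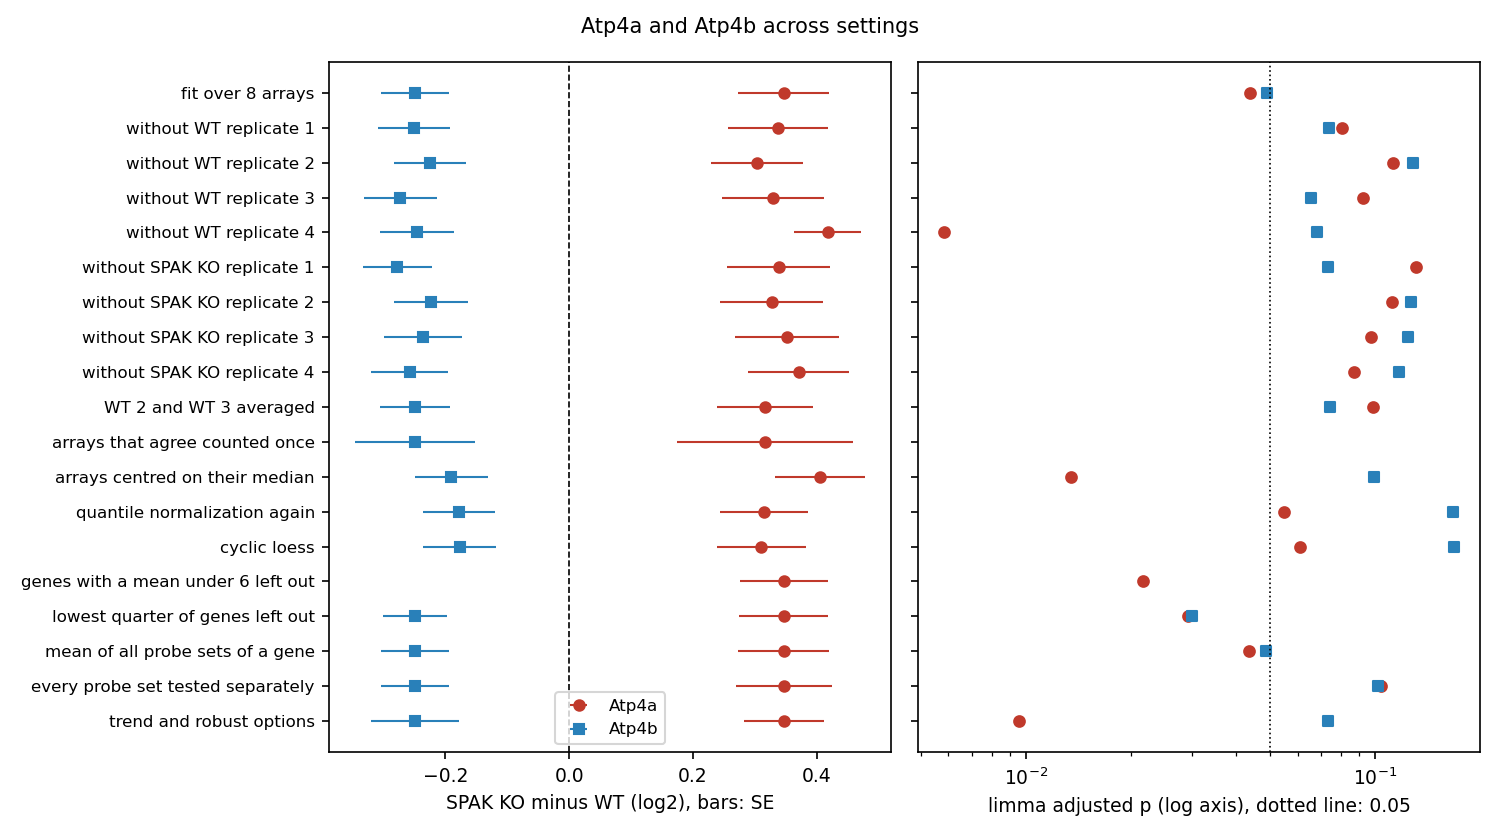
Differences between SPAK KO and WT (left, log2 with SE bars) and limma adjusted p (right, log axis, dotted line at 0.05) for Atp4a (circles) and Atp4b (squares) under the fit over 8 arrays and its alternatives, other than the fit with the replicate number as a block, which is not drawn. No adjusted p is drawn for arrays that agree counted once, which leaves 1 SPAK KO sample. Atp4a stays between 0.304 and 0.418 and Atp4b between −0.28 and −0.18, while the adjusted p of both moves across the line.

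RefSeq promoter windows were held for 5 of the 8 members, and 3 are shown as the upstream sequence of the member that rose and of 2 members of other roles that did not pass. Each is the 250 bases before the annotated start in GRCm38.p6, 5′ to 3′ on the gene's strand: Atp4a, chr7:30711959-30712208 on the plus strand, Atp1b1, chr1:164458356-164458605 on the minus strand, and Fxyd4, chr6:117937336-117937585 on the minus strand. Capitals mark the Sp1 box GGGCGG or its reverse complement CCGCCC.
Atp4a: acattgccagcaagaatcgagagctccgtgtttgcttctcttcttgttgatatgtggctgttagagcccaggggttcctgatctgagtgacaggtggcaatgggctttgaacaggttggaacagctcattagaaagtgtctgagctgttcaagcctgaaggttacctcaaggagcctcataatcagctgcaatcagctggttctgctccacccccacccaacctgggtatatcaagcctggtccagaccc
Atp1b1: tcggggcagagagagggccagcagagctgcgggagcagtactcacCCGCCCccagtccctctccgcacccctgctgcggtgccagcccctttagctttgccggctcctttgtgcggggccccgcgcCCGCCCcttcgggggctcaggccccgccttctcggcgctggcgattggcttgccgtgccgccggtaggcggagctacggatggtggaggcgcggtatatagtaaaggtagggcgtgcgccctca
Fxyd4: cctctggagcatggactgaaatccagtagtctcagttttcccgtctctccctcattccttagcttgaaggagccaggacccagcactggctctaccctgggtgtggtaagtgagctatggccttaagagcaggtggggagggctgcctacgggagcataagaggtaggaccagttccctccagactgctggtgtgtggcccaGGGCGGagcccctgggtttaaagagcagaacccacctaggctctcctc
The Atp1b1 window held 2 Sp1 boxes, the Fxyd4 window 1 and the Atp4a window 0, and 32.7% of 32851 windows of the same length held at least 1. The corticosteroid receptor half-site AGAACA, the GATA site AGATAA, the forkhead site TAAACA and the TATA box TATAAA, searched on both strands, had 0 matches in these 3 windows, and were held by 16.1%, 9.99%, 12.03% and 12.4% of all windows. No searched motif overlapped another in the 3 windows. These matches describe the letters only.

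Among genes that act around the pump, single members were called. Of 17 measured genes for proteins that bind or regulate the sodium-potassium pump, a list that also holds Pln and Sln, known mainly from calcium pumps, 2 rose and 0 fell, with a median difference of 0.01. Sgk1 was 1 of them, and the other was Prkca, protein kinase C α, which can phosphorylate the pump's catalytic subunit. Prkca read 7.82, 7.82, 7.74 and 7.82 on the SPAK KO arrays, against 7.51, 7.41, 7.44 and 7.58 on the WT arrays, and the groups did not overlap. Its difference was 0.32 ± 0.05 (limma adjusted p = 0.0157). Leaving out arrays in turn, Prkca and Sgk1 passed in 4 of 8 fits each.

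Of 10 measured calcium and copper pumps of the same P-type family, 1 rose, Atp2a3, a calcium pump gene of the endoplasmic reticulum, by 0.29 ± 0.06 (limma adjusted p = 0.0404). It read 6.78, 6.74, 6.72 and 6.68 on the SPAK KO arrays, against 6.39, 6.57, 6.49 and 6.33 on the WT arrays. The list median was 0.02, and leaving out arrays in turn Atp2a3 passed in 1 of 8 fits. Of 10 apical sodium entry genes 1 rose, Scnn1b, an epithelial sodium channel subunit, by 0.28 ± 0.05 (limma adjusted p = 0.0269), and the list median was −0.05. Leaving out arrays in turn, Scnn1b passed in 2 of 8 fits. Differences were above 0 for 4 of the 10 and below 0 for 6. Scnn1a at 0.25 ± 0.06 and Slc12a1 at 0.24 ± 0.05 did not pass (limma adjusted p = 0.0861 and 0.0520). All SPAK KO arrays were above all WT arrays for 3 of the 10 and below them for 2, against 6.9% and 5.71% of all genes. Slc12a3, the NaCl cotransporter driven by the pump's sodium gradient, gave −0.14 ± 0.05 and did not pass (limma adjusted p = 0.183). It read 12.23 to 12.26 on the SPAK KO arrays and 12.32 to 12.49 on the WT arrays. All 4 SPAK KO arrays were thus below all 4 WT arrays, by a gap of 0.06, as were those of 5.71% of all genes.

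Of 7 potassium channel genes of tubule cells, several of which return pumped potassium across the basolateral membrane, 1 rose. Kcnk1, a TWIK-type channel gene, read 9.12, 9.03, 9.05 and 9.01 on the SPAK KO arrays, against 8.80, 8.45, 8.46 and 8.60 on the WT arrays. The groups did not overlap, and the difference was 0.47 ± 0.08 (limma adjusted p = 0.0147). The list median was −0.02, with Kcnj10 and Kcnj16, which form the main basolateral channel of the distal convoluted tubule, at 0.12 ± 0.06 and −0.05 ± 0.04, neither of which passed. Kcnj16 turned to 0.01 with centred arrays.

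Markers of the cells known to hold the pumps were read on the same arrays. Of 14 intercalated cell markers, 8 rose and 0 fell, with a median of 0.37, against 1.39% called higher and 0.682% lower over all genes. This list, like the others, was chosen with earlier results of these data known. The mean over these 14 was 9.82 to 9.86 on the SPAK KO arrays and 9.42 to 9.61 on the WT arrays. Differences were above 0 for 12 of the 14 and below 0 for 2, Slc4a1 at −0.15 ± 0.11 and Atp6v0a4 at −0.03 ± 0.04. Among the 8 that rose, Oxgr1, the 2-oxoglutarate receptor gene, gave 0.58 ± 0.06 and Atp6v0d2, a vacuolar proton pump subunit gene, 0.36 ± 0.05. Intercalated cells are a site of proton-potassium pumps in rodents, and the part of these markers in the Atp4a difference was not tested. Of 8 thick ascending limb markers 2 rose, Cldn16 at 0.32 ± 0.05 and Casr at 0.31 ± 0.06, and 0 fell, with a median of 0.20. Casr passed in 2 of the 8 fits that left out an array, and did not pass with WT 2 and WT 3 averaged (limma adjusted p = 0.0599), while Cldn16 passed in 8 of 8. The proximal tubule, which holds much of the cortical pump, had 1 of 14 markers higher, Aqp1 at 0.34 ± 0.06, which passed in 5 of 8 such fits, and a median of 0.04. Of 9 late distal and connecting tubule markers, 2 rose, Scnn1b and S100g, and 0 fell, with a median of 0.14. Scnn1b passed in 2 of 8 such fits and S100g in 3. In this late list 8 differences were above 0 and 1 was below, Calb1 at −0.21 ± 0.08 (limma adjusted p = 0.220). In the proximal list 10 were above 0 and 4 below, the lowest being Slc5a2 at −0.17 ± 0.07 (limma adjusted p = 0.205).

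**Figure D4:**
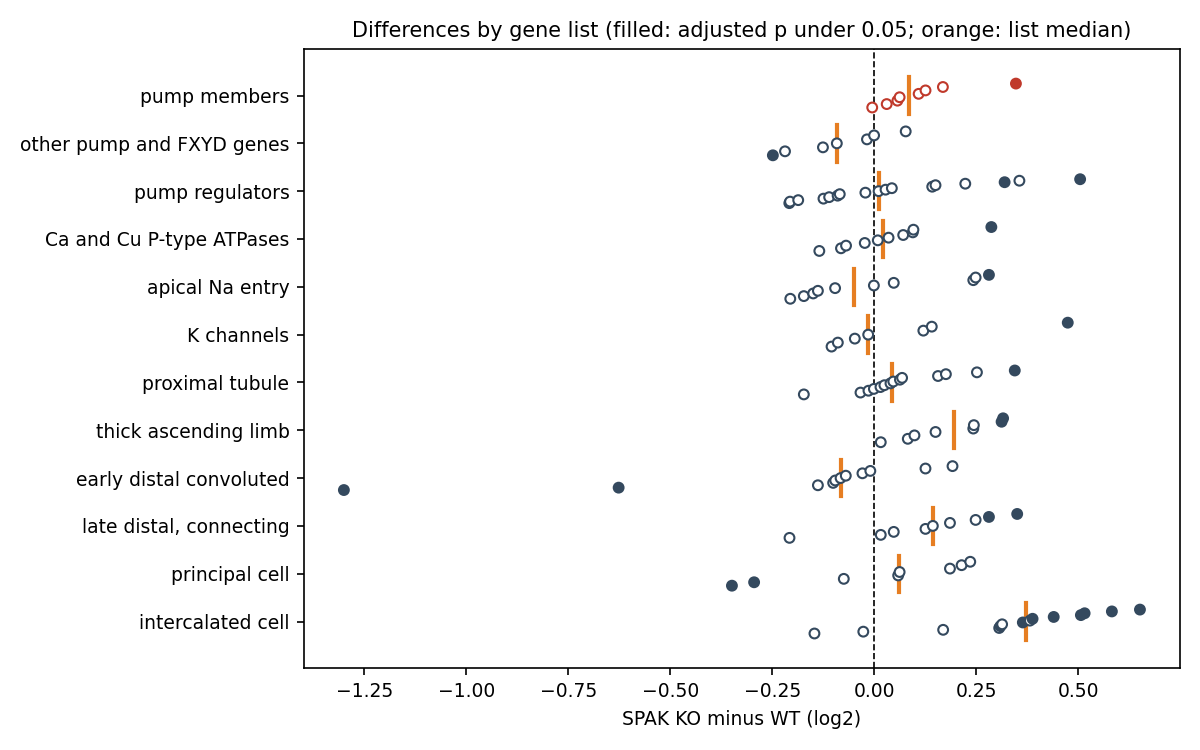
SPAK KO minus WT differences in log2 values of single genes (points, filled where the limma adjusted p was under 0.05) by gene list, with the list median in orange. The median lies at 0.09 for the pump members (red, top) and at 0.37 for intercalated cell markers (bottom).

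For the 3 members with the largest differences, the genes with the most similar pattern were ranked by the root mean square difference of log2 values over the 8 arrays, each gene centred on its own mean. Nearest to Atp4a were Slc25a48, a mitochondrial carrier gene, at 0.0412, Casr, the calcium-sensing receptor gene of the thick ascending limb, at 0.0457, and Tldc2 at 0.0464, against a median of 0.223 over all genes. Slc25a48 read 8.90, 8.88, 8.82 and 8.83 on the SPAK KO arrays, against 8.52, 8.41, 8.46 and 8.64 on the WT arrays, with WT 4 highest among the WT arrays as for Atp4a. Nearest to Atp1b2 were Ecm2, N4bp2 and Tgfb2 (0.0637 to 0.065), and nearest to Atp12a were Calcoco1, Vipr1 and Slc16a11 (0.0558 to 0.0655), all of which had overlapping groups. Since the SPAK KO arrays are so alike, these distances rest largely on the WT arrays and on the step between the groups. The genes were picked for likeness on these same arrays, so features they share with a member are no separate result.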

How the data were processed

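The deposited log2 values are RMA values (background-corrected, normalized between arrays and summarised per probe set), for which the submitters' processing notes name Affymetrix Expression Console. Its version, the genome build and any filters are not given in the sources used here. Total RNA (6 µg per sample) was labelled with biotin, per the labels' protocols. The deposited table covered 35556 probe sets and 8 arrays, with 0 values missing, and array medians were 6.09 to 6.12 in SPAK KO and 6.13 to 6.19 in WT. Per the platform annotation, 21789 probe sets had 1 gene symbol, 1621 several and 12146 none, and the first kind gave 19938 genes. No filter on dim genes was applied, and 7 of the 8 members had a mean of 6 or more. The number of separate RNA samples limits precision, and nothing but the labels says that the 8 arrays are 8 mice.

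Genotype was tested over 8 arrays with limma 3.58.1 in R 4.3.3 (lmFit, eBayes), with Benjamini-Hochberg adjustment over all genes and a threshold of 0.05. The code was tested on simulated data. Alternatives left out each array, averaged arrays that agree, added the replicate number as a block, changed scaling, dim-gene filter, probe set choice or variance options (statmod 1.5.0). Members and lists were chosen with earlier results of these data known, including that arrays agree. Genes named were the members, the other pump and FXYD genes, the called genes (or else the 2 with the smallest p) of 4 further lists, Slc12a3, Pvalb and Stk39, up to 2 called genes per cell type, and the 3 nearest patterns to 3 members. Nme7, 2200002J24Rik, Tmem147, Kcnj10 and Kcnj16 were added after their values were seen, as neighbours or partners. Promoter windows came from RefSeq (GRCm38.p6).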

Additional observations from a re-analysis of the deposited data

Results flagged for a closer look

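Among 94 groups of 4 arrays (47 genes, each in SPAK KO and WT), 4 held an array that stood apart from the other 3 by Dixon's ratio, and chance gives about 1 in 20. Fxyd4 read 7.28 on SPAK KO 2, below 7.39 to 7.41 on the other SPAK KO arrays. Prkca read 7.74 on SPAK KO 3, below 7.82 on each of the others. N4bp2 read 6.80 on SPAK KO 2, below 7.03 to 7.06. Aqp4 read 5.75 on WT 4, above 5.48 to 5.50 on the other WT arrays. Since the SPAK KO arrays differ little from each other, a small gap is enough to set 1 apart.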

How the results depend on the processing

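The 7 members that did not pass stayed uncalled in all 124 alternative fits with more than 1 SPAK KO sample (lowest adjusted p = 0.144), and the Atp4a difference kept its sign in 19 of 19. The SPAK KO arrays are nearly alike, as are WT 2 and WT 3. A fit that leaves out 1 of these can change a size little, for Atp4a and for the other genes named. The count of members called was 0 to 1 when arrays were left out in turn, and 0 with the replicate number as a block, WT 2 and WT 3 averaged, quantile normalization again, cyclic loess or every probe set tested separately. It was 1, Atp4a, in the 5 others. Atp12a gave no value in the 2 fits without dim genes.

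Over all genes 414 were called. Leaving out 1 array gave 156 to 625, the lowest without SPAK KO 1 and the highest without WT 4. The replicate block gave 174, WT 2 and WT 3 averaged 253, every probe set tested separately 253, genes with a mean under 6 left out 664 and trend and robust options 767. Arrays that agree counted once left 1 SPAK KO sample, so the 0 genes and 0 members called there are no test of genotype and say nothing about stability. Centring arrays on their median gave 761, of which 88.4% were higher instead of 67.2%, and moved the median difference of all genes by 0.06. Atp1b3 then gave 0.17 and Fxyd2 0.11, and neither was called. Same-numbered arrays shared only a number: the correlations of their deviations ran from −0.129 to 0.133 over 4 pairs, and 0 of 4 SPAK KO arrays correlated best with its own number. With the block, Atp4a had an adjusted p of 0.111 and Atp4b of 0.115.

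Signs turned only near 0. Fxyd5 gave −0.038 to 0.020 when arrays were left out and 0.053 with centred arrays. Fxyd1 gave −0.049 to 0.012 and 0.040. Fxyd7 gave −0.032 to 0.039 when arrays were left out, 0.0037 with WT 2 and WT 3 averaged or agreeing arrays counted once, and 0.058, 0.056 and 0.048 with centring, quantile normalization and cyclic loess. Vipr1 gave −0.026 with the mean of its probe sets, and Slc16a11 gave −0.0010 to 0.15 when arrays were left out. Tmem147 gave −0.037 to 0.033 when arrays were left out, 0.026 with WT 2 and WT 3 averaged or agreeing arrays counted once and 0.056 with centring, which also turned Kcnj16 to 0.011. The cause was not tested. Array values without detection calls cannot show whether dim genes such as Atp12a and Atp4b are expressed.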

Other observations

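Markers of other cells that cortex can hold were read on the same arrays. Of 5 podocyte, 8 endothelial, 9 stroma and smooth muscle, 6 nerve and glial and 2 red blood cell markers measured, 0 were called (limma adjusted p under 0.05), with list medians of 0.11, −0.05, 0.03, −0.11 and −0.09. Among the 6 nerve and glial markers, 5 had a mean under 6. Of 11 immune cell markers 1 fell, Cd3e, a T cell receptor component gene, at −0.31 ± 0.06. The list median was 0.01, with 6 differences above 0 and 5 below. Of 5 medullary markers 1 fell, Aqp4, with a list median of 0.10, and 3 of the 5 had a mean under 6. Slc14a2 gave −0.21 ± 0.05 and did not pass (limma adjusted p = 0.0821), and the 3 others had differences above 0. For 2 of the 5, Aqp4 and Slc14a2, all SPAK KO arrays were below all WT arrays, as for 5.71% of all genes. Of 5 adipocyte markers 1 rose, Retn, the resistin gene, at 0.31 ± 0.07. The list median was 0.16, with 4 differences above 0 and 1 below. A mean under 6 was found for 3 of these 5, Retn among them. Leaving out arrays in turn, Cd3e passed in 1 of 8 fits and Retn in 0. In the late distal list S100g, a calcium-binding protein gene, was the other called gene beside Scnn1b, at 0.35 ± 0.06, and passed in 3 of 8 such fits.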
